A study of Mus musculus with 17 samples.

Results

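Genes of the interleukin, colony-stimulating factor (CSF), interferon receptor and tumor necrosis factor (TNF) families were followed across mouse myeloid cells sorted from 4T1 mammary tumors and from bone marrow. Members were the rows of the raw count table whose symbol starts with Il and a digit, Tnfrsf, Tnfsf, Csf1 to Csf3 or Ifna, Ifnb or Ifng, or equals Tnf. Il1a, Il1b, Il1rn, Il1r2 and Csf1r were left out by the rule. It gave 55 of the 10207 genes with a symbol, and it reads symbols alone. By their products, 15 encode ligands, 38 encode receptor chains and 2 encode a binding or decoy protein (Il18bp and Tnfrsf23).

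Cells came from female BALB/c mice, and RNA was read from the 3' end of transcripts. Tumor-associated macrophages (TAM, 3 libraries) were CD11b+ Gr1- F4/80+ cells sorted from tumors that grew to 1 cm after 100000 luciferase-labelled 4T1 mammary carcinoma cells (4T1-luc) were placed in the mammary fat pad. Marrow cells of such tumor-bearing mice (BMDM_T, 4 libraries) were CD11b+ Gr+ F4/80low cells flushed from tibia and femur. The same marrow gate in untreated healthy mice (BMDM_H) gave 4 libraries in the first of 2 batches, whose nature the labels do not give. Label ages were 8 weeks for TAM and BMDM_T and 12 weeks for BMDM_H, so tumor and age cannot be told apart between the marrow groups; the series description, however, speaks of age-matched animals where it describes the healthy mice that gave mammary gland macrophages. Only the 11 libraries of the first batch were compared by gene; 4 further BMDM_H and 2 mammary gland macrophage libraries of the second batch were not used here, since their rows do not follow the gene symbols.

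Cytokines of these families are secreted or membrane-bound proteins that act through paired receptor chains. Interleukin, CSF and interferon receptors mostly signal through Janus kinases and STAT proteins, the receptors of the IL-1 and IL-18 group through the adaptor Myd88, and TNF family receptors through TRAF adaptors or death domains. In myeloid tissue, macrophage CSF supports monocytes and macrophages, granulocyte CSF supports neutrophils, and granulocyte-macrophage CSF acts on both. Many receptor chains are shared, so a change in 1 chain can touch several cytokines.

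Total counts ran from 1748338 to 3747929 in TAM, from 931278 to 1218977 in BMDM_T and from 387940 to 1286844 in BMDM_H. Levels are CPM, counts relative to the TMM-adjusted library size, and per-library values are listed in the order of the replicate numbers. Whether replicates of a group were different mice is not stated in the labels, so a p-value refers to the spread among these libraries and may cover technical spread only. Macrophage markers (8 of 9 listed had a symbol) summed to 59091 to 73069 CPM in TAM, 2095 to 2591 CPM in BMDM_T and 2689 to 3680 CPM in BMDM_H. Neutrophil markers (9 of 10 listed) summed to 302 to 526 CPM in TAM, 156241 to 187566 CPM in BMDM_T and 129850 to 201643 CPM in BMDM_H. The marrow samples are labelled as monocytes, but their neutrophil sums were far above their monocyte sums (7 of 7 listed markers), which were 1290 to 1876 CPM in BMDM_T and 1938 to 3513 CPM in BMDM_H.

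Promoter sequences are shown for members whose levels carry the results below. Csf1, Tnfsf14, Csf2rb2 and Il13ra1 were higher in BMDM_T than in BMDM_H, Il21r was high in TAM, and Il18rap was low in TAM. Each line holds the 250 bases before the gene start, 5' to 3' on the gene's strand, from RefSeq on GRCm38.p6. Capitals mark matches, on either strand, to 5 letter patterns: GAGGAA (PU.1-type), TTGCNNAA (C/EBP-type), TGANTCA (AP-1-type), GGGNNNTCC (NF-kB-type) and TTCNNNGAA (STAT-type).
Csf1: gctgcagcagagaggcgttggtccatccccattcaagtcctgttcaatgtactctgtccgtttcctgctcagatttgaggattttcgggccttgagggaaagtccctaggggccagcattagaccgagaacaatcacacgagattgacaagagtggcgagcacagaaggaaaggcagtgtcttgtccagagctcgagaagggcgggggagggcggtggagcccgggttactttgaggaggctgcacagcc
Tnfsf14: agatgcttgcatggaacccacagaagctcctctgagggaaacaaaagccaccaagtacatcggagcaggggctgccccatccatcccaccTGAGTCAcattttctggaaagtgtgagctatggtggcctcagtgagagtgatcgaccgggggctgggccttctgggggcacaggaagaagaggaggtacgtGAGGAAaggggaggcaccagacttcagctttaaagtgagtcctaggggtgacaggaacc
Csf2rb2: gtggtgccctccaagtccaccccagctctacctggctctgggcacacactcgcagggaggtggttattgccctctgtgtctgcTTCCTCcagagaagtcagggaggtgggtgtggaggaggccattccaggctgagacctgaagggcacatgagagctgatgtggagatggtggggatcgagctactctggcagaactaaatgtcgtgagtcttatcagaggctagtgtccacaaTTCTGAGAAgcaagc
Il13ra1: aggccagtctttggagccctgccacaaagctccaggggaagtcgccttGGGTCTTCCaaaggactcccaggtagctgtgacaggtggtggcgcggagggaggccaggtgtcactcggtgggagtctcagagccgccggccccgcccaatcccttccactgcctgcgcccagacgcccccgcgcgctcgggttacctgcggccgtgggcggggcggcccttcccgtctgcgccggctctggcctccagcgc
Il21r: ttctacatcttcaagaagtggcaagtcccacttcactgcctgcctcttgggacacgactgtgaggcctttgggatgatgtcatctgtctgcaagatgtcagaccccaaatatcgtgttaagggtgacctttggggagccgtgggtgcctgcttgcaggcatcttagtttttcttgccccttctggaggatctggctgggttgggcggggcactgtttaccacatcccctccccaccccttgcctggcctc
Il18rap: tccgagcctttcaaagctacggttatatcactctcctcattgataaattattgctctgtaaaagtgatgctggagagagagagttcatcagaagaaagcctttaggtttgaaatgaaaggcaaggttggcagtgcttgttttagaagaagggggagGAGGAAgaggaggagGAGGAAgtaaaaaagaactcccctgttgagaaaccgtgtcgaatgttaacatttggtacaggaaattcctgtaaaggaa
These windows lie at chr3:107760470-107760719 (minus strand) for Csf1, chr17:57194182-57194431 (minus) for Tnfsf14, chr15:78305722-78305971 (minus) for Csf2rb2, chrX:36111858-36112107 (plus) for Il13ra1, chr7:125603179-125603428 (plus) for Il21r and chr1:40515112-40515361 (plus) for Il18rap. Tnfsf14 held 1 GAGGAA and 1 TGANTCA match, Csf2rb2 held 1 GAGGAA match on the other strand and 1 TTCNNNGAA match, Il13ra1 held 1 GGGNNNTCC match, and Il18rap held 2 GAGGAA matches, while the windows of Csf1 and Il21r held none of the 5 patterns. Among all 32851 RefSeq promoter windows of this length, 23.25% held GAGGAA, 15.19% GGGNNNTCC, 9.56% TTGCNNAA, 7.02% TTCNNNGAA and 6.75% TGANTCA. RefSeq windows were matched for 46 of the 55 members (56 windows), of which 17 held GAGGAA, 7 GGGNNNTCC, 6 TTGCNNAA, 9 TTCNNNGAA and 6 TGANTCA. The matches are letters only and describe no binding. Csf2rb and Il10rb had no entry.

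TAM against BMDM_T sets the macrophages of the tumor against the marrow cells of mice with the same tumor. In the TNF family, the ligands Tnfsf9 and Tnfsf12 and the receptors Tnfrsf9 and Tnfrsf12a were higher in TAM, which are the ligand and the receptor of 2 known pairs. The cytokine receptor chains Il21r, Il2rg, Il12rb1, Il10ra, Il11ra1, Ifnar1 and Csf2rb2 were also higher in TAM. Lower in TAM were the ligands Il16, Tnfsf14 and Csf1 and the receptor chains Csf3r, Il17ra, Il18rap and Tnfrsf18. Of the 38 members with enough counts to be tested, 13 rose (background 30.1% of all 7518 genes tested) and 13 fell (28.7%) in TAM at an adjusted p under 0.05, which is 68.4% called beside 58.9% of all genes tested. Sorted from whole tissue, a sample with fewer cells of a type and one with less RNA per cell cannot be told apart.

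By role, 3 of 10 tested ligands rose and 4 fell, 9 of 26 tested receptor chains rose and 8 fell, Il18bp rose and Tnfrsf23 fell. The median log2 fold change was -0.60 over the tested ligands and -0.10 over the tested receptors, against 0.03 over all genes tested. The other 17 members had too few counts for the test, and tested members such as Tnfsf9, Tnfrsf9 and Il12rb1 passed the filter through TAM alone, where they were high, so these counts describe the tested members and no more. The plot of fold changes in TAM against BMDM_T shows how the roles spread.

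**Figure D1:**
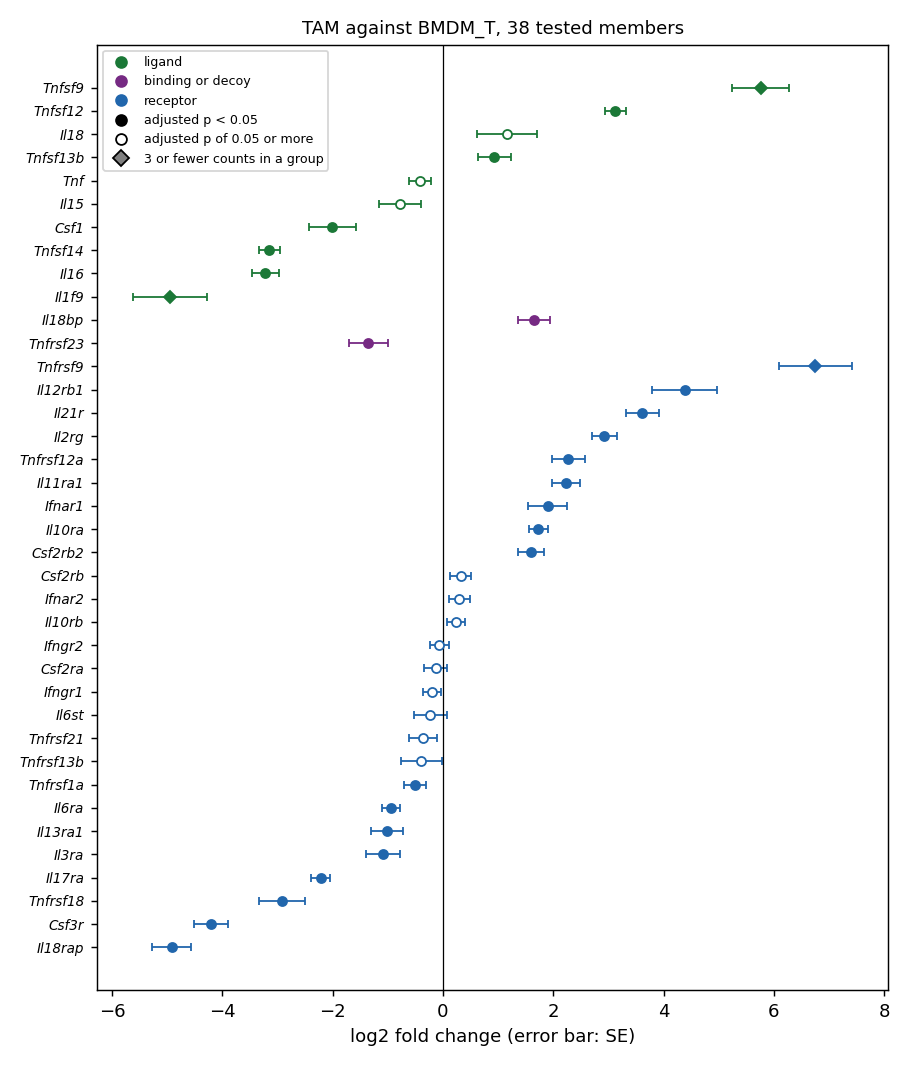
Log2 fold change (x axis) of the 38 tested members, TAM over BMDM_T, with the SE as error bar, ordered within ligands, binding or decoy proteins and receptors. Filled symbols have an adjusted p under 0.05; Tnfrsf9 and Tnfsf9 lie at the high end and Il1f9 and Il18rap at the low end, and diamonds mark members with 3 or fewer counts in a group.

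Among the ligands that rose, Tnfsf12 encodes TWEAK, the ligand of the receptor Fn14. Tnfsf12 measured 161, 140.0 and 129 CPM in TAM, 13.997, 16.0, 16.2 and 18.9 CPM in BMDM_T and 27.1, 31.4, 24.2 and 31.2 CPM in BMDM_H. All TAM libraries lay above all marrow libraries. Tnfsf12 rose in TAM relative to BMDM_T, with a log2 fold change of 3.12 ± 0.19 (adjusted p = 2.38e-11), an 8.70-fold difference. In the annotation (GENCODE vM21, GRCm38) the gene shares its strand with the overlapping fusion gene Tnfsfm13, whose reads cannot be told from its own.

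Tnfsf9 encodes the ligand of the costimulatory receptor CD137. Tnfsf9 measured 30.6, 29.2 and 33.6 CPM in TAM, 0, 0.840, 0 and 0.902 CPM in BMDM_T and 0.796, 1.61, 0 and 2.602 CPM in BMDM_H. It was near 0 in both marrow groups and present in each TAM library. With 240 counts over the TAM libraries and 2 over BMDM_T, the pooled ratio was 65.0 (95% exact counting interval 17.8 to 540.1), and the adjusted p was 4.7e-09. Tnfsf13b encodes BAFF, a survival factor of B cells that myeloid cells secrete. Tnfsf13b measured 27.8, 37.7 and 69.0 CPM in TAM, 25.8, 31.1, 23.1 and 16.2 CPM in BMDM_T and 65.3, 85.3, 48.4 and 52.0 CPM in BMDM_H. The TAM libraries overlapped with BMDM_T, and TAM replicate 3 was the highest. Its log2 fold change in TAM over BMDM_T was 0.93 ± 0.30 (adjusted p = 0.0109), and without TAM replicate 3 it was 0.43 (adjusted p = 0.211).

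Among the ligands that fell, Tnfsf14 encodes LIGHT, which binds the lymphotoxin beta receptor and HVEM. Tnfsf14 measured 17.2, 12.7 and 16.5 CPM in TAM, 159, 132, 139 and 126 CPM in BMDM_T and 53.3, 44.2, 42.8 and 52.0 CPM in BMDM_H. TAM held the lowest levels, BMDM_H intermediate ones and BMDM_T the highest, with no overlap between any of the groups. Tnfsf14 fell in TAM relative to BMDM_T, with a log2 fold change of -3.15 ± 0.19 (adjusted p = 2.28e-11). Il16 encodes a precursor of a chemoattractant for CD4+ cells. Il16 measured 18.3, 22.8 and 38.5 CPM in TAM, 298, 272, 241 and 220.1 CPM in BMDM_T and 232, 271, 294 and 174 CPM in BMDM_H. Both marrow groups were high and overlapped, and TAM was low. Il16 fell in TAM by 3.22 ± 0.24 on the log2 scale (adjusted p = 5.25e-10), a 9.33-fold lower level; Stard5 overlaps it on the other strand, and the strand setting of the counting is not given in the sources used here.

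Csf1 encodes macrophage CSF. Csf1 measured 34.4, 10.6 and 7.24 CPM in TAM, 73.2, 77.3, 53.1 and 59.5 CPM in BMDM_T and 24.7, 11.3, 9.30 and 49.4 CPM in BMDM_H. BMDM_T lay above both other groups in every library, and TAM replicate 1 was high within TAM. Csf1 fell in TAM relative to BMDM_T, with a log2 fold change of -2.01 ± 0.43 (adjusted p = 0.000452), and without TAM replicate 1 the value was -2.93 (adjusted p = 3.61e-06). Il1f9 encodes interleukin 36 gamma, an IL-1 family cytokine of neutrophils and epithelia. Il1f9 measured 0, 0 and 0.517 CPM in TAM, 10.8, 14.3, 10.4 and 7.22 CPM in BMDM_T and 5.57, 5.63, 3.72 and 2.602 CPM in BMDM_H. TAM held 2 counts in all against 44 in BMDM_T, a pooled ratio of 40.6 to the side of BMDM_T (95% exact counting interval 10.6 to 345.7; adjusted p = 1.02e-06). Both TAM counts were in replicate 3, and without it the adjusted p was 8.16e-06. Alongside these falls, neutrophil markers were at 302 to 526 CPM in TAM and at 156241 to 187566 CPM in BMDM_T, and their part in the falls was not tested.

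Tnf, the founding TNF ligand, did not pass the test between TAM and BMDM_T. Tnf measured 43.3, 35.5 and 30.5 CPM in TAM, 58.1, 38.7, 50.8 and 46.0 CPM in BMDM_T and 74.8, 59.5, 72.5 and 52.0 CPM in BMDM_H. TAM was lowest on average and overlapped with BMDM_T. Its log2 fold change was -0.41 ± 0.21 (adjusted p = 0.0888), and it passed without BMDM_T replicate 2 (adjusted p = 0.0455) or without TAM replicate 1 (adjusted p = 0.0425). Il15, a growth factor of NK and memory T cells, averaged 5.28 ± 2.49 CPM in TAM, 9.63 ± 2.26 CPM in BMDM_T and 10.7 ± 1.93 CPM in BMDM_H (SD, n = 3, 4 and 4). Its log2 fold change in TAM over BMDM_T was -0.78 ± 0.38 (adjusted p = 0.0837), and the adjusted p was 0.0494 without BMDM_T replicate 1 and 0.0280 without TAM replicate 3. Il18, an IL-1 family cytokine released after caspase cleavage, averaged 9.04 ± 2.03 CPM in TAM, 3.92 ± 2.90 CPM in BMDM_T and 10.2 ± 8.45 CPM in BMDM_H. The 3 TAM libraries lay above the 4 BMDM_T libraries, yet the log2 fold change of 1.16 ± 0.55 (adjusted p = 0.0730) did not pass; it passed with total-count scaling (adjusted p = 0.0454) and with limma-voom (adjusted p = 0.0375).

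**Figure D2:**
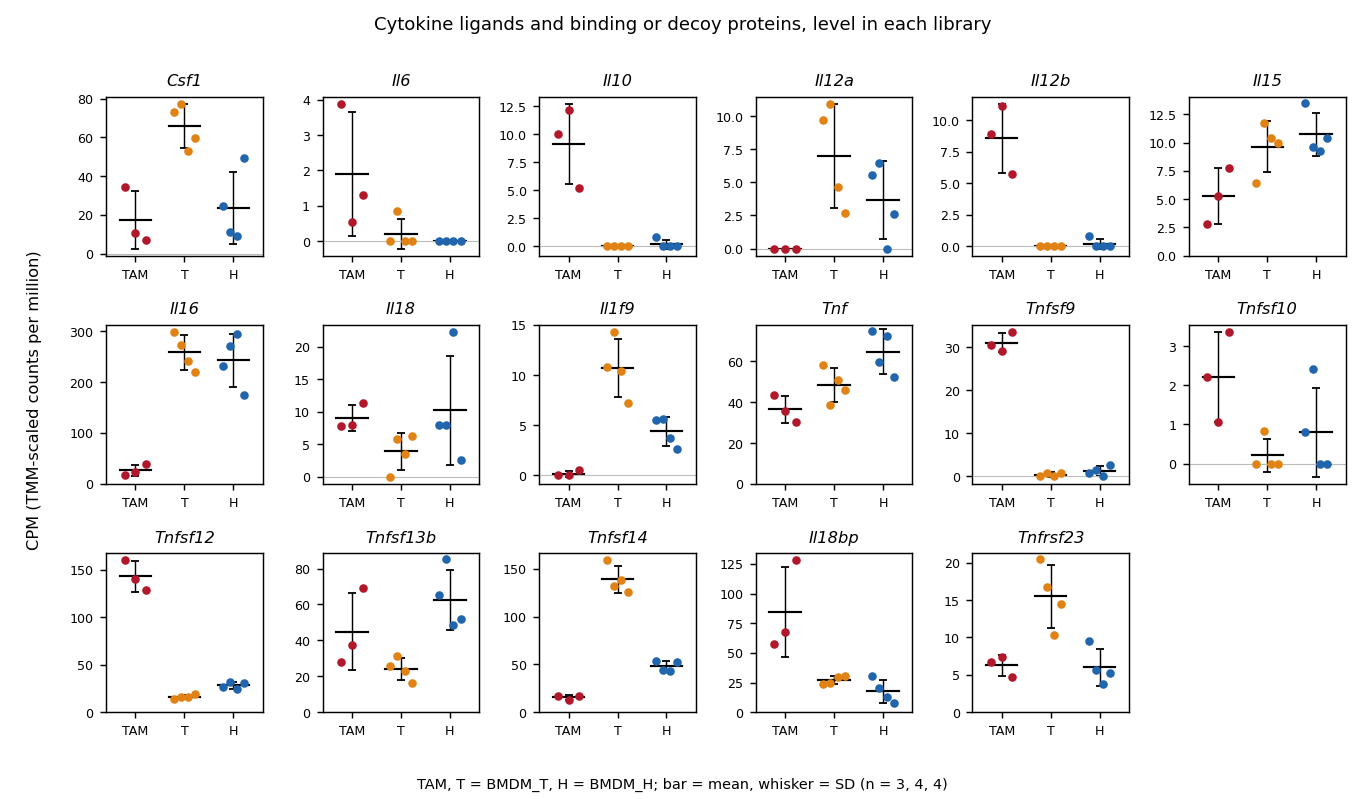
Level in CPM (y axis, TMM-scaled, linear, own scale per panel) of the 15 ligand genes and of Il18bp and Tnfrsf23 in each library of TAM, BMDM_T and BMDM_H. Points are libraries, bars are means and whiskers are SD (n = 3, 4 and 4); Tnfsf9, Tnfsf12, Il10 and Il12b stand high in TAM, and Il16, Il12a and Tnfsf14 in marrow.

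The 5 ligands below the count filter included the subunits of interleukin 12. Il12b encodes the p40 subunit shared by interleukins 12 and 23, and Il12a encodes the p35 subunit of interleukin 12. Il12b measured 8.89, 11.1 and 5.69 CPM in TAM, 0, 0, 0 and 0 CPM in BMDM_T and 0.796, 0, 0 and 0 CPM in BMDM_H. Il12a measured 0, 0 and 0 CPM in TAM, 9.69, 10.9, 4.62 and 2.71 CPM in BMDM_T and 5.57, 6.43, 0 and 2.602 CPM in BMDM_H. Il12b was seen in all TAM libraries and in 1 marrow library, while Il12a was seen in no TAM library and in 7 of 8 marrow libraries. With 59 counts in TAM and 0 in BMDM_T, Il12b was at least 10.7-fold higher in TAM, taking 3 counts over the BMDM_T libraries as the floor. Il12a, with 0 counts in TAM and 29 in BMDM_T, was at least 17.8-fold lower in TAM, taking 3 counts over the TAM libraries as the floor. These bounds cover counting error only, since PCR and sampling of cells add to it.

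Il10, an anti-inflammatory cytokine, measured 10.001, 12.2 and 5.17 CPM in TAM, 0 in each BMDM_T library and 0.796, 0, 0 and 0 CPM in BMDM_H. With 61 counts in TAM and 0 in BMDM_T it was at least 11.02-fold higher in TAM on that floor. Il6 had 13 counts in TAM and 1 in BMDM_T, a pooled ratio of 7.05 (95% exact counting interval 1.06 to 299.4). Tnfsf10, which encodes the death ligand TRAIL, had 19 counts in TAM and 1 in BMDM_T, a pooled ratio of 10.3 (1.64 to 428). In a fit with no filter on low counts, Il10 (adjusted p = 2.1e-05), Il12b (2e-05), Il12a (2.17e-05) and Tnfsf10 (0.0285) passed between TAM and BMDM_T. Markers of dissociation stress (11 of 11 listed) summed to 8044 to 8441 CPM in TAM, 2879 to 5193 CPM in BMDM_T and 4503 to 5590 CPM in BMDM_H. Ier2 of this list went the other way, with 316 to 463 CPM in TAM and 1019 to 1408 CPM in BMDM_T. Egr1 and Dusp1 were also lower on average in TAM than in BMDM_T, and the other listed markers were higher. The part of these markers in the levels of inducible cytokines was not tested.

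**Figure D3:**
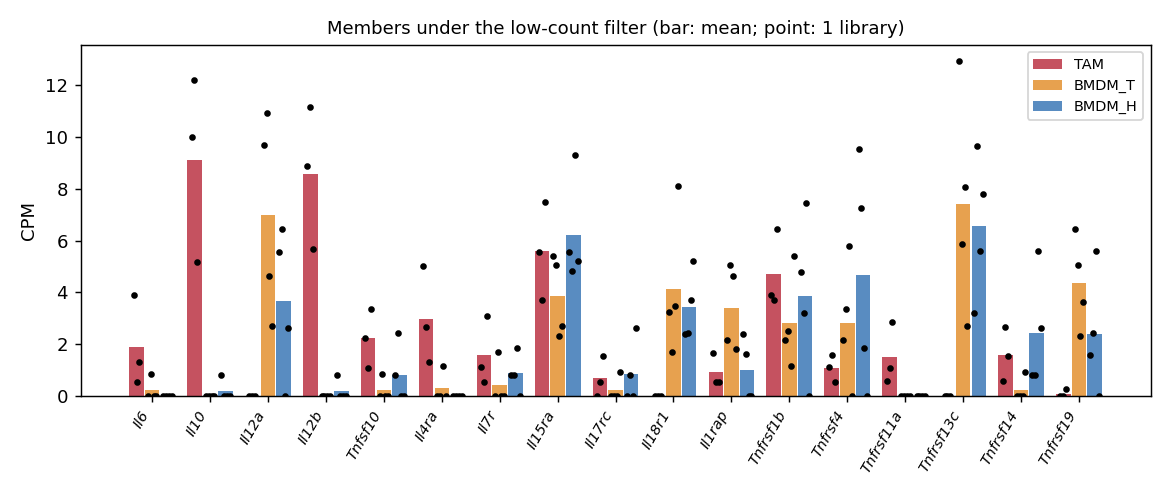
Level in CPM (y axis) of the 17 members below the count filter, with bars for the mean of TAM, BMDM_T and BMDM_H and a point for each library. Il10 and Il12b have bars in TAM, where BMDM_T is at 0, while Il12a, Il18r1 and Tnfrsf13c have bars in marrow and 0 in TAM.

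Turning to receptors, the largest rise in TAM was in Tnfrsf9, which encodes CD137, the receptor of the Tnfsf9 product. Tnfrsf9 measured 55.0, 27.1 and 27.4 CPM in TAM, 0, 0.840, 0 and 0 CPM in BMDM_T and 0.796, 0, 0 and 0 CPM in BMDM_H. It was near 0 in marrow and present in each TAM library, with replicate 1 highest. TAM held 256 counts and BMDM_T 1, a pooled ratio of 139 (95% exact counting interval 24.7 to 5501; adjusted p = 1.29e-08), and without BMDM_T replicate 2, which held that count, the adjusted p was 2.89e-07. Camta1 overlaps the gene on the other strand. Tnfrsf12a encodes Fn14, the receptor of TWEAK. Tnfrsf12a measured 147, 90.2 and 99.02 CPM in TAM, 23.7, 20.2, 16.2 and 31.6 CPM in BMDM_T and 31.0, 26.5, 29.8 and 83.3 CPM in BMDM_H. TAM lay above both marrow groups, of which BMDM_H replicate 4 came closest. Tnfrsf12a rose in TAM relative to BMDM_T, with a log2 fold change of 2.27 ± 0.30 (adjusted p = 1.66e-06). Sums over markers of other cell types were also higher in TAM. Epithelial sums (8 of 9 listed) were 68.3 to 105 CPM in TAM and 12.9 to 37.0 CPM in BMDM_T, stromal and endothelial sums (6 of 9) 70.8 to 103 CPM in TAM and 20.8 to 35.3 CPM in BMDM_T, and dendritic cell sums (4 of 8) 68.3 to 86.6 CPM in TAM and 24.8 to 38.8 CPM in BMDM_T. Batf3 made up most of the dendritic cell sum in TAM, with a mean of 64.6 CPM against 18.5 CPM in BMDM_T. Flt3 went the other way, with 0.556, 0 and 0.259 CPM in TAM and 5.41 to 11.5 CPM in BMDM_T. The means of Cd209a and of the epithelial marker Epcam were also lower in TAM. Krt18 made up most of the epithelial sum in each TAM library, with 37.8, 67.4 and 50.4 CPM. It was at 2.71 to 20.8 CPM in BMDM_T. Pecam1 made up most of the stromal and endothelial sum in TAM, with 83.3, 49.9 and 53.5 CPM. It was at 16.2 to 32.8 CPM in BMDM_T. Col1a1, Col1a2 and Col3a1 overlapped between TAM and BMDM_T, whereas Pdgfrb and Kdr were higher in TAM with no overlap. No marker of these lists was at 0 over the TAM libraries, and the part of these markers in the rises of members in TAM was not tested.

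Of the other TNF receptor family members, Tnfrsf18 encodes GITR, a costimulatory receptor of T cells and NK cells. Tnfrsf18 measured 2.78, 1.59 and 2.07 CPM in TAM, 11.8, 15.1, 23.1 and 17.1 CPM in BMDM_T and 13.5, 16.1, 18.6 and 33.8 CPM in BMDM_H. TAM was low in every library and the marrow groups overlapped. Tnfrsf18 fell in TAM, with a log2 fold change of -2.92 ± 0.42 (adjusted p = 4.23e-06). Tnfrsf1a, the main TNF receptor with a death domain, averaged 242 ± 59.3 CPM in TAM and 344 ± 65.8 CPM in BMDM_T. TAM replicate 3 lay within the range of BMDM_T. Tnfrsf1a fell in TAM by 0.51 ± 0.20 on the log2 scale (adjusted p = 0.0348); the call was lost with total-count scaling (adjusted p = 0.148), and the adjusted p lay between 0.0625 and 0.153 when TAM replicate 1 or 2 or BMDM_T replicate 1 or 2 was left out.

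Tnfrsf13b (TACI, a BAFF receptor) and Tnfrsf21 (death receptor 6) did not pass, with log2 fold changes of -0.39 ± 0.37 (adjusted p = 0.369) and -0.36 ± 0.26 (adjusted p = 0.237). Tnfrsf23, a mouse decoy receptor of TRAIL, averaged 6.25 ± 1.43 CPM in TAM and 15.5 ± 4.22 CPM in BMDM_T, and it fell in TAM with a log2 fold change of -1.35 ± 0.35 (adjusted p = 0.00244). Below the count filter, Tnfrsf13c, the BAFF receptor of B cells, had 0 counts in TAM against 29 in BMDM_T, at least 17.8-fold lower in TAM. Tnfrsf19 had 1 count in TAM and 18 in BMDM_T, a pooled ratio of 33.2 to the side of BMDM_T (95% exact counting interval 5.24 to 1384). Tnfrsf11a, which encodes RANK, had 14 counts in TAM and 0 in BMDM_T, at least 2.53-fold higher in TAM. Tnfrsf1b, the other TNF receptor, averaged 4.69 ± 1.54 CPM in TAM and 2.81 ± 1.83 CPM in BMDM_T, and Tnfrsf4 (OX40) and Tnfrsf14 (HVEM) stayed under 3 CPM on average in both. B cell markers (8 of 10 listed) summed to 22.8 to 31.3 CPM in TAM, with Cd79a, Ms4a1 and Vpreb3 at 0, and to 455 to 798 CPM in BMDM_T. Cd22 of the same list went the other way, with 15.6, 15.9 and 20.7 CPM in TAM and 6.93 to 12.6 CPM in BMDM_T, and the part of these markers in Tnfrsf13c was not tested.

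Il2rg encodes the common gamma chain itself, shared by the receptors of interleukins 2, 4, 7, 9, 15 and 21. Il2rg measured 136, 200.5 and 256 CPM in TAM, 23.7, 30.3, 24.2 and 25.3 CPM in BMDM_T and 40.6, 39.4, 22.3 and 28.6 CPM in BMDM_H. All TAM libraries lay above marrow, and the spread within TAM was wide. Il2rg rose in TAM with a log2 fold change of 2.93 ± 0.23 (adjusted p = 8.49e-10); Gm20489 overlaps it on the same strand. Il21r encodes the chain that pairs with it for interleukin 21. Il21r measured 173, 124 and 134 CPM in TAM, 11.8, 4.20, 18.5 and 13.5 CPM in BMDM_T and 4.78, 12.9, 14.9 and 10.4 CPM in BMDM_H. The TAM libraries stood far above both marrow groups, which overlapped each other. Il21r rose in TAM by a log2 fold change of 3.61 ± 0.30 (adjusted p = 1.92e-09), 12.2-fold.

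The interleukin 4 receptor uses Il4ra with either Il2rg or, in its second form, Il13ra1. Il13ra1 averaged 17.5 ± 3.57 CPM in TAM, 34.9 ± 8.95 CPM in BMDM_T and 14.04 ± 6.46 CPM in BMDM_H. It fell in TAM relative to BMDM_T with a log2 fold change of -1.02 ± 0.29 (adjusted p = 0.00456). Il4ra was below the filter, with 19 counts in TAM, 1 in BMDM_T and 0 in BMDM_H. Its pooled ratio in TAM over BMDM_T was 10.3 (95% exact counting interval 1.64 to 428). Il15ra, which presents interleukin 15, averaged 5.59 ± 1.89 CPM in TAM and 3.86 ± 1.58 CPM in BMDM_T, and Il7r had 15 counts in TAM and 2 in BMDM_T. T and NK cell markers, of which 5 of 15 listed had a symbol, summed to 14.4 to 20.7 CPM in TAM, against 262 to 316 CPM in BMDM_T. Cd3d was at 0.556, 0.530 and 0 CPM in TAM and at 107 to 144 CPM in BMDM_T, whereas Cd4 went the other way, with 7.78, 17.0 and 14.5 CPM in TAM and 3.23 to 4.62 CPM in BMDM_T.

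Il12rb1 encodes the chain shared by the receptors of interleukins 12 and 23. Il12rb1 measured 16.7, 24.9 and 38.5 CPM in TAM, 4.31, 0, 0 and 0.902 CPM in BMDM_T and 1.59, 3.22, 5.58 and 2.602 CPM in BMDM_H. Each TAM library lay above each marrow library, and BMDM_T replicates 2 and 3 had no count. Il12rb1 rose in TAM with a log2 fold change of 4.38 ± 0.59 (adjusted p = 1.68e-06) and had 5 counts in all in BMDM_T; without BMDM_T replicate 1, which held most of them, the value was 6.07 (adjusted p = 3.28e-07). Il11ra1, the ligand-binding chain for interleukin 11, averaged 56.5 ± 3.72 CPM in TAM and 11.9 ± 3.01 CPM in BMDM_T and rose with a log2 fold change of 2.23 ± 0.25 (adjusted p = 1.72e-07); 6 annotated genes overlap its span. Its partner Il6st (gp130) averaged 12.6 ± 3.42 CPM in TAM and 14.4 ± 4.08 CPM in BMDM_T and did not pass (-0.23 ± 0.30, adjusted p = 0.525). Il6ra, the ligand-binding chain for interleukin 6, averaged 77.0 ± 8.37 CPM in TAM and 148 ± 9.87 CPM in BMDM_T and fell with a log2 fold change of -0.94 ± 0.17 (adjusted p = 6.41e-05).

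The interleukin 10 receptor pairs Il10ra, which binds the cytokine, with Il10rb, shared by several related receptors. Il10ra measured 285, 297 and 263 CPM in TAM, 87.2, 74.8, 90.0 and 87.5 CPM in BMDM_T and 173, 98.1, 136 and 151 CPM in BMDM_H. TAM was highest, BMDM_H intermediate and BMDM_T lowest, with no overlap. Il10ra rose in TAM relative to BMDM_T with a log2 fold change of 1.73 ± 0.18 (adjusted p = 4.61e-08). Il10rb averaged 114 ± 11.9 CPM in TAM and 97.2 ± 15.7 CPM in BMDM_T and did not pass (0.23 ± 0.16, adjusted p = 0.236). Of the interferon receptor chains, Ifnar1, a chain of the type I receptor, measured 29.4, 33.9 and 26.1 CPM in TAM and 16.2, 2.52, 4.62 and 9.02 CPM in BMDM_T. The groups did not overlap, and BMDM_T replicate 1 was high within its group. Ifnar1 rose in TAM with a log2 fold change of 1.90 ± 0.36 (adjusted p = 0.000121), while its partner Ifnar2 had 0.30 ± 0.19 (adjusted p = 0.190). The interferon gamma receptor chains Ifngr1 and Ifngr2 had log2 fold changes of -0.20 ± 0.17 (adjusted p = 0.331) and -0.07 ± 0.17 (adjusted p = 0.748), and neither passed.

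Csf3r encodes the granulocyte CSF receptor, a receptor of the neutrophil lineage. Csf3r measured 29.4, 31.3 and 39.6 CPM in TAM, 652, 851, 568 and 429 CPM in BMDM_T and 554, 306, 272 and 260.2 CPM in BMDM_H. TAM was low in all libraries, and the marrow groups overlapped through BMDM_H replicate 1. Csf3r fell in TAM by 4.20 ± 0.30 on the log2 scale (adjusted p = 2.49e-10), 18.4-fold. Il17ra encodes the shared chain of interleukin 17 receptors. Il17ra measured 149, 176 and 114 CPM in TAM, 716, 677, 692 and 629.6 CPM in BMDM_T and 559.5, 613, 612 and 573 CPM in BMDM_H. Every marrow library lay above every TAM library. Il17ra fell in TAM with a log2 fold change of -2.22 ± 0.18 (adjusted p = 1.33e-09). The neutrophil marker sums given above moved the same way, and their part in both falls was not tested.

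The receptor of granulocyte-macrophage CSF joins Csf2ra with the common beta chain Csf2rb, which interleukins 3 and 5 also use, and mice carry a second beta chain for interleukin 3, Csf2rb2. Csf2rb2 measured 81.1, 53.0 and 78.9 CPM in TAM, 22.6, 28.6, 26.6 and 16.2 CPM in BMDM_T and 6.37, 9.65, 5.58 and 7.81 CPM in BMDM_H. The 3 groups did not overlap, with TAM highest and BMDM_H lowest. Csf2rb2 rose in TAM relative to BMDM_T with a log2 fold change of 1.60 ± 0.23 (adjusted p = 5.64e-06). Csf2rb measured 298, 256 and 305 CPM in TAM, 306, 205, 199.7 and 209 CPM in BMDM_T and 152, 144, 96.7 and 78.1 CPM in BMDM_H. TAM and BMDM_T overlapped and BMDM_H was lowest. Csf2rb did not pass between TAM and BMDM_T (0.32 ± 0.20, adjusted p = 0.174), although it did with total-count scaling (adjusted p = 0.0458). Csf2rb and Csf2rb2 are near copies, 92.1% identical over the aligned transcript and 86.3% over the last 500 bases, so reads may have been split between them.

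Csf2ra averaged 87.4 ± 18.8 CPM in TAM and 97.0 ± 20.9 CPM in BMDM_T and did not pass (-0.13 ± 0.20, adjusted p = 0.590). Il3ra, the interleukin 3 binding chain, measured 36.7, 29.7 and 24.6 CPM in TAM and 60.3, 29.4, 86.6 and 80.3 CPM in BMDM_T. BMDM_T replicate 2 lay among the TAM values and its other libraries above them. Il3ra fell in TAM with a log2 fold change of -1.09 ± 0.31 (adjusted p = 0.00548). Basophil and mast cell markers (6 of 7 listed) summed to 4.65 to 15.6 CPM in TAM, with Prss34, Ms4a2 and Fcer1a at 0, and to 1174 to 1383 CPM in BMDM_T, and their part in Il3ra was not tested.

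The genes of the interleukin 18 system divided by group. Il18rap encodes the accessory chain of the receptor and Il18r1 its binding chain, and Il18bp encodes a soluble protein that binds the cytokine. Il18rap measured 3.33, 3.71 and 1.81 CPM in TAM, 66.8, 132, 71.6 and 65.8 CPM in BMDM_T and 103, 72.4, 89.3 and 88.5 CPM in BMDM_H. Marrow was high and TAM near 0, with BMDM_T replicate 2 above its group. Il18rap fell in TAM with a log2 fold change of -4.92 ± 0.35 (adjusted p = 1.7e-10), 30.3-fold. Il18r1 had 0 counts in TAM against 17 in BMDM_T and 10 in BMDM_H, at least 10.5-fold lower in TAM than in BMDM_T. Il18bp measured 57.8, 67.4 and 128 CPM in TAM, 23.7, 24.4, 30.02 and 30.7 CPM in BMDM_T and 30.2, 20.1, 13.0 and 7.81 CPM in BMDM_H. TAM lay above marrow, with replicate 3 highest. Il18bp rose in TAM with a log2 fold change of 1.66 ± 0.29 (adjusted p = 5.54e-05); Numa1 overlaps it on the other strand. The sums of T and NK cell markers and of basophil markers were also low in TAM, with the values given above and with Cd4 as an exception, and their part in Il18rap and Il18r1 was not tested. Il1rap, the accessory chain of the IL-1 receptor, had 6 counts in TAM and 14 in BMDM_T, and Il17rc, a second interleukin 17 receptor chain, had 7 counts in TAM and 1 in BMDM_T.

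**Figure D4:**
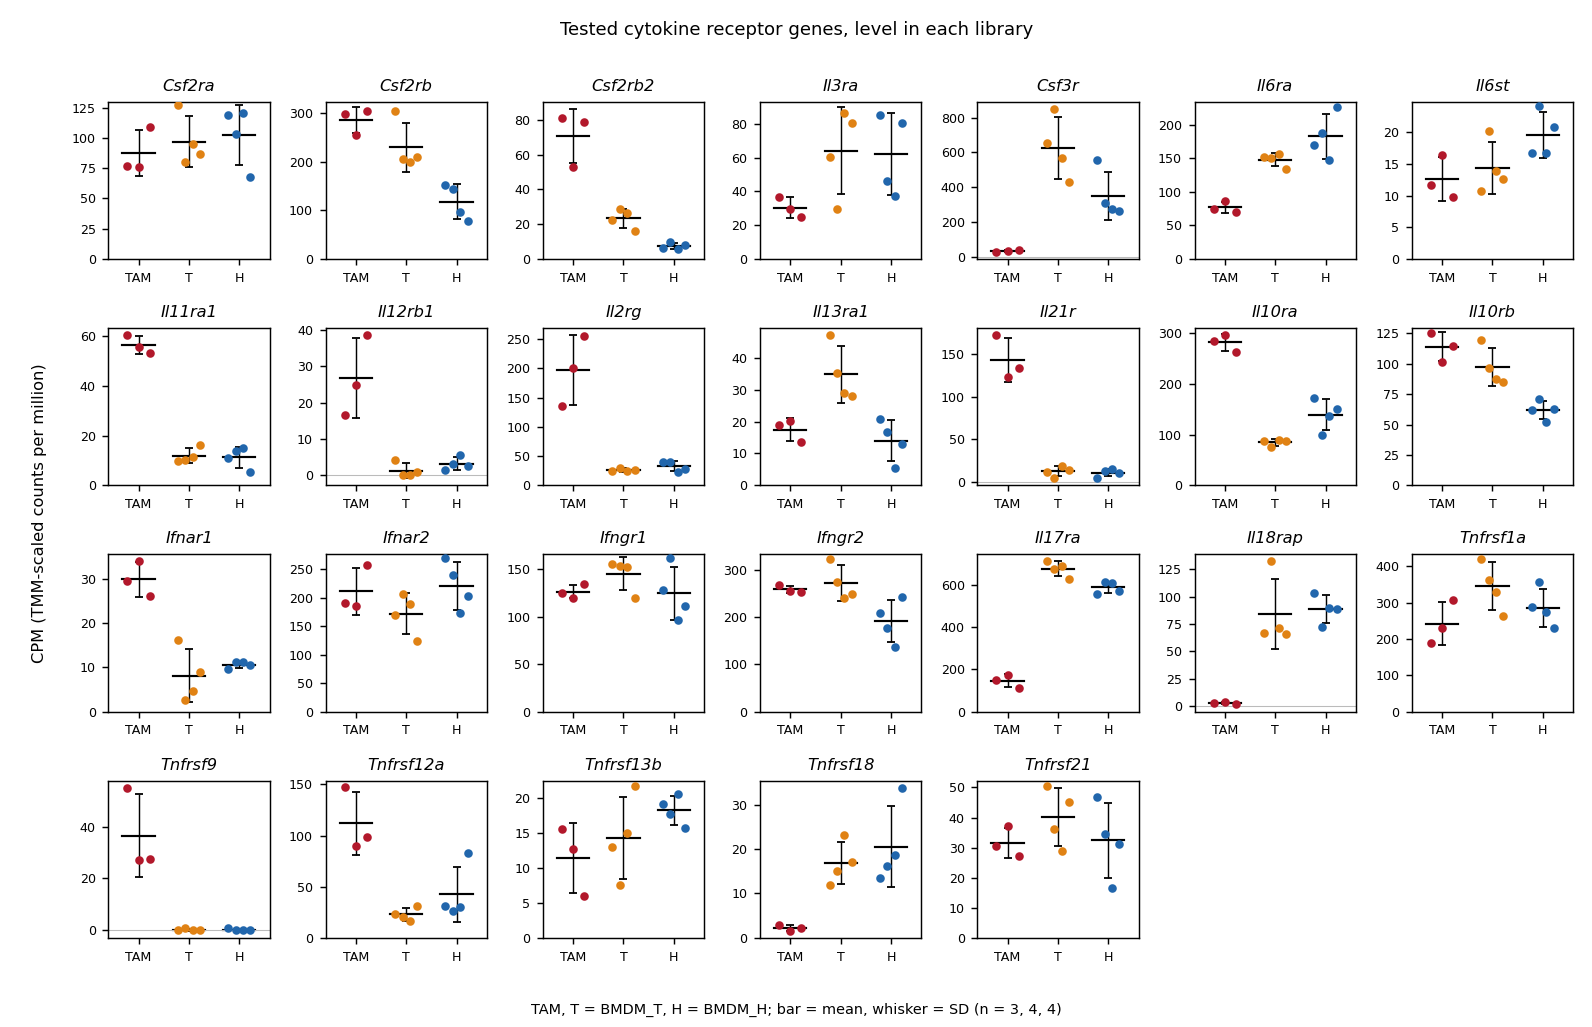
Level in CPM (y axis, TMM-scaled, linear, own scale per panel) of the 26 tested receptor genes in each library of TAM, BMDM_T and BMDM_H. Points are libraries, bars are means and whiskers are SD (n = 3, 4 and 4); Il21r, Il2rg and Tnfrsf9 stand high in TAM, Csf3r, Il17ra and Il18rap high in marrow, and Csf2rb2 is highest in TAM, lower in BMDM_T and lowest in BMDM_H.

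BMDM_T against BMDM_H asks what differed in the sorted marrow cells of mice with a tumor. The beta chains Csf2rb and Csf2rb2, the granulocyte CSF receptor Csf3r, Il13ra1 and Il10rb were higher in BMDM_T, as were the ligands Csf1 and Tnfsf14. The ligands Tnfsf13b (BAFF) and Tnfsf12 (TWEAK) and the receptor Il10ra were lower. Of the 38 tested members 7 rose (background 2.82% of all genes tested) and 3 fell (2.00%), which is 26.3% called beside 4.82% of all genes tested. Over all genes 212 rose and 150 fell, and with total-count scaling 155 rose and 218 fell. That scaling shifts the median of all genes by -0.11 on the log2 scale in this comparison and by 0.15 in TAM against BMDM_T.

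Among the ligands 2 of 10 rose and 2 fell, with a median log2 fold change of -0.31 against -0.01 over all genes tested. Tnfsf14 averaged 139 ± 14.4 CPM in BMDM_T and 48.1 ± 5.36 CPM in BMDM_H (SD, n = 4 each) and rose by a log2 fold change of 1.53 ± 0.17 (adjusted p = 9.9e-06), 2.88-fold. Csf1 averaged 65.8 ± 11.4 CPM in BMDM_T and 23.7 ± 18.5 CPM in BMDM_H, where replicate 4 stood above the others at 49.4 CPM. It rose by a log2 fold change of 1.64 ± 0.44 (adjusted p = 0.0308). The call on Csf1 was lost with DESeq2 (adjusted p = 0.137), and its adjusted p lay between 0.0609 and 0.143 when BMDM_T replicate 1 or 2 or BMDM_H replicate 1, 2 or 3 was left out.

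Tnfsf13b averaged 24.1 ± 6.19 CPM in BMDM_T and 62.7 ± 16.7 CPM in BMDM_H, with no overlap, and fell with a log2 fold change of -1.43 ± 0.30 (adjusted p = 0.00590). Tnfsf12 averaged 16.3 ± 2.03 CPM in BMDM_T and 28.5 ± 3.49 CPM in BMDM_H, also with no overlap. It fell with a log2 fold change of -0.80 ± 0.22 (adjusted p = 0.0393), and the adjusted p lay between 0.0615 and 0.144 without BMDM_T replicate 1, 2 or 3, BMDM_H replicate 1, 2 or 4 or TAM replicate 2. Tnfsf12 also missed the threshold with DESeq2 (0.0888), limma-voom (0.0701), no count filter (0.0673) and a fit of these groups alone (0.0651). Il1f9 averaged 10.7 ± 2.89 CPM in BMDM_T and 4.38 ± 1.48 CPM in BMDM_H, with no overlap, but its log2 fold change of 1.12 ± 0.45 (adjusted p = 0.176) did not pass. Tnf (-0.45 ± 0.20, adjusted p = 0.235), Il18 (-1.26 ± 0.59, adjusted p = 0.263), Il15 (-0.17 ± 0.38, adjusted p = 0.870) and Il16 (0.08 ± 0.20, adjusted p = 0.893) did not pass, and nor did Tnfsf9.

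Among the receptors 5 of 26 rose and 1 fell, with a median log2 fold change of -0.02. Csf2rb2 averaged 23.5 ± 5.44 CPM in BMDM_T and 7.35 ± 1.79 CPM in BMDM_H and rose by a log2 fold change of 1.62 ± 0.32 (adjusted p = 0.00370), 3.08-fold. Csf2rb averaged 230.0 ± 50.7 CPM in BMDM_T, where replicate 1 was highest at 306 CPM, and 118 ± 36.0 CPM in BMDM_H. It rose by a log2 fold change of 0.91 ± 0.20 (adjusted p = 0.00855), and missed the threshold when the shallow BMDM_H replicates 3 and 4 were both left out (adjusted p = 0.126). The alpha chains that pair with them, Csf2ra (-0.11 ± 0.20, adjusted p = 0.834) and Il3ra (0.03 ± 0.30, adjusted p = 0.9799), did not pass.

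Csf3r averaged 625 ± 177 CPM in BMDM_T and 348 ± 139 CPM in BMDM_H, where replicate 1 at 554 CPM lay inside the range of BMDM_T. It rose by a log2 fold change of 0.83 ± 0.23 (adjusted p = 0.0441). The call was lost with total-count scaling (adjusted p = 0.0733) and in a fit of these groups alone (0.0510), and the adjusted p lay between 0.0600 and 0.145 without BMDM_T replicate 1, 2 or 3 or BMDM_H replicate 2, 3 or 4. Il13ra1 rose by 1.17 ± 0.31 (adjusted p = 0.0281) on the log2 scale with no overlap between the groups. Its call was lost with total-count scaling (adjusted p = 0.0529) and limma-voom (0.0558), and the adjusted p lay between 0.0583 and 0.0960 without BMDM_T replicate 1 or 2 or BMDM_H replicate 2, 3 or 4.

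The interleukin 10 receptor chains moved in opposite directions. Il10rb averaged 97.2 ± 15.7 CPM in BMDM_T and 61.8 ± 7.66 CPM in BMDM_H, with no overlap, and rose by a log2 fold change of 0.63 ± 0.17 (adjusted p = 0.0371). Il10ra averaged 84.9 ± 6.85 CPM in BMDM_T and 139 ± 31.4 CPM in BMDM_H, with no overlap, and fell with a log2 fold change of -0.71 ± 0.18 (adjusted p = 0.0201). Il10rb missed the threshold with total-count scaling (adjusted p = 0.106), limma-voom (0.0558) and a fit of these groups alone (0.0546), and its adjusted p lay between 0.0616 and 0.125 without BMDM_T replicate 1 or 2 or BMDM_H replicate 1, 3 or 4. For Il10ra it lay between 0.0514 and 0.105 without BMDM_T replicate 2 or BMDM_H replicate 1 or 4.

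Of the TNF receptor superfamily, Tnfrsf23 came nearest to the threshold between BMDM_T and BMDM_H, with a log2 fold change of 1.23 ± 0.38 (adjusted p = 0.0681). It passed with the replicate numbers as a block (1.33, adjusted p = 0.0374) and without BMDM_H replicate 1 (adjusted p = 0.0467). Ifngr2 had 0.52 ± 0.17 (adjusted p = 0.0872) and passed with the block (adjusted p = 0.0479), with DESeq2 (0.0436) and without BMDM_H replicate 4 (0.0433). Tnfrsf12a (-0.71 ± 0.33, adjusted p = 0.265), Il18rap (-0.06 ± 0.23, adjusted p = 0.933) and Il17ra (0.20 ± 0.15, adjusted p = 0.551) did not pass.

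Markers of other cell types also moved between the marrow groups. Macrophage marker sums were 2095 to 2591 CPM in BMDM_T and 2689 to 3680 CPM in BMDM_H, monocyte sums 1290 to 1876 CPM in BMDM_T and 1938 to 3513 CPM in BMDM_H, and dendritic cell sums (4 of 8 listed markers) 24.8 to 38.8 CPM in BMDM_T and 41.8 to 70.7 CPM in BMDM_H. Basophil and mast cell sums were 1174 to 1383 CPM in BMDM_T and 587 to 772 CPM in BMDM_H. Hdc made up most of that sum, at 927 to 1156 CPM in BMDM_T and 378 to 569 CPM in BMDM_H. Prss34, Mcpt8, Ms4a2, Fcer1a and Gata2 of the same list overlapped between the marrow groups. Erythroid sums (5 of 8 listed) were 6.31 to 20.2 CPM in BMDM_T and 51.7 to 260.2 CPM in BMDM_H. The groups did not overlap in these 5 sums, whereas neutrophil sums overlapped. Within the neutrophil list 3 of 9 genes were higher in BMDM_T with no overlap. Mpo, a granule enzyme, was at 1526 to 1863 CPM in BMDM_T and 380 to 621 CPM in BMDM_H, the granule protease Elane at 361 to 486 CPM in BMDM_T and 109 to 172 CPM in BMDM_H, and the chemokine receptor Cxcr2 at 635 to 771 CPM in BMDM_T and 217 to 285 CPM in BMDM_H. Of the same list, S100a8, S100a9 and Retnlg were also higher on average in BMDM_T, and Camp, Ngp and Ltf were lower, all with overlap. Camp was at 29816 to 36259 CPM in BMDM_T and 33852 to 52159 CPM in BMDM_H. Mpo, Elane and Cxcr2 thus moved in the same direction as Csf3r, and Camp, Ngp and Ltf in the other. The part of the cell makeup in the member changes was not tested.

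**Figure D5:**
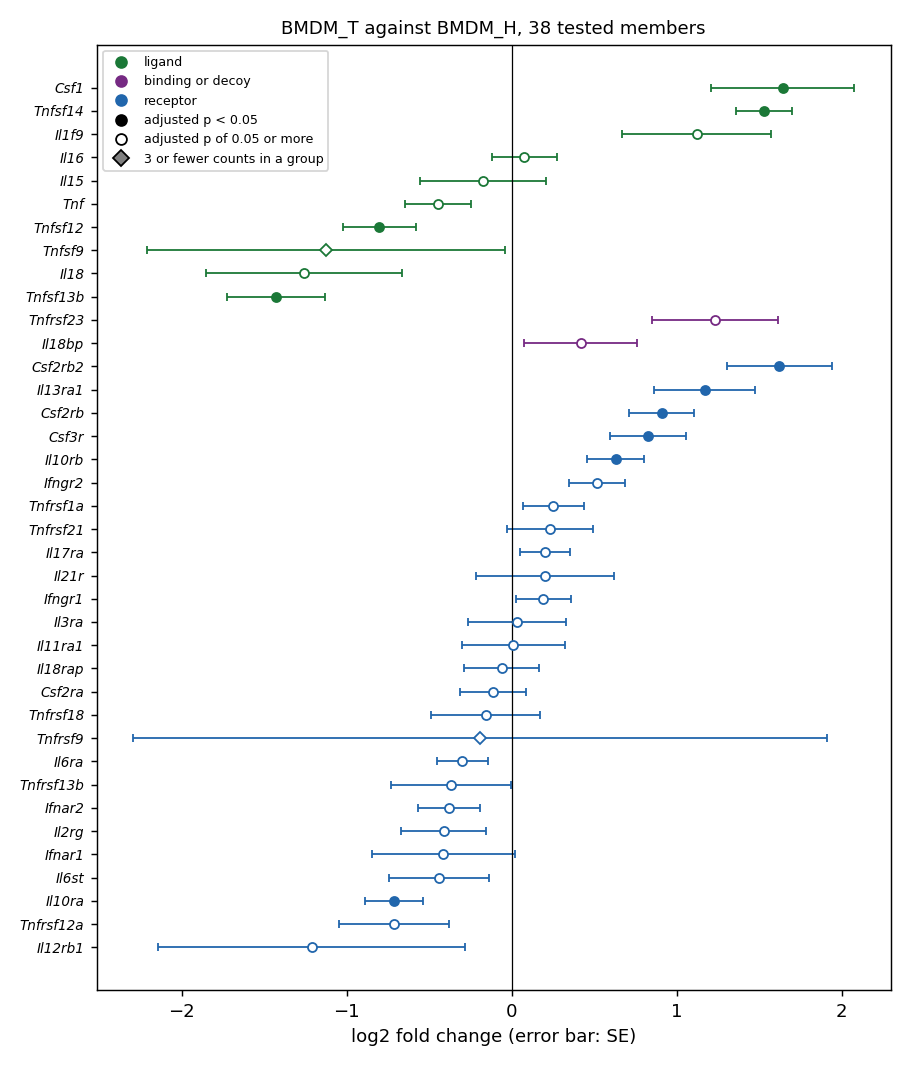
Log2 fold change (x axis) of the 38 tested members, BMDM_T over BMDM_H, with the SE as error bar, ordered within ligands, binding or decoy proteins and receptors. Filled symbols have an adjusted p under 0.05: Csf1, Tnfsf14 and 5 receptor genes lie to the right, and Tnfsf12, Tnfsf13b and Il10ra to the left.

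TAM against BMDM_H shares its libraries with both comparisons above and is given as values beside them. In TAM 15 of the 38 tested members rose (background 28.0% of all genes tested) and 11 fell (28.3%), or 68.4% called beside 56.3% of all genes tested. Among the ligands Tnfsf9 and Tnfsf12 rose and Il15, Il16, Il1f9, Tnf and Tnfsf14 fell, and among the receptors 12 rose and 6 fell. Csf2rb rose in TAM relative to BMDM_H with a log2 fold change of 1.23 ± 0.21 (adjusted p = 3.88e-05), and Il10rb rose with 0.86 ± 0.17 (adjusted p = 0.000312). Tnf fell with a log2 fold change of -0.86 ± 0.21 (adjusted p = 0.00142), with every TAM library below every BMDM_H library.

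Tnfsf13b and Csf1 did not pass between TAM and BMDM_H, with log2 fold changes of -0.50 ± 0.28 (adjusted p = 0.134) and -0.37 ± 0.49 (adjusted p = 0.549). Without TAM replicate 3 the value of Tnfsf13b was -0.99 (adjusted p = 0.00445), and with the replicate block it was -0.66 (adjusted p = 0.0443). Without TAM replicate 1 the value of Csf1 was -1.28 (adjusted p = 0.0197). Il15 (-0.95 ± 0.39, adjusted p = 0.0420), Il3ra (-1.05 ± 0.32, adjusted p = 0.00854) and Ifngr2 (0.45 ± 0.18, adjusted p = 0.0379) passed but lost the call in some alternatives. Il15 had an adjusted p between 0.0502 and 0.151 without BMDM_H replicate 1 or 2 or TAM replicate 1 or 2, Il3ra 0.0592 without BMDM_H replicate 1, and Ifngr2 0.0626 to 0.149 without BMDM_H replicate 2 or 3 or any 1 TAM library.

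Genes downstream of these receptors were read from 4 lists. In TAM against BMDM_T, 25 of the 45 tested genes of these lists were called, beside 58.9% of all genes tested (30.1% higher and 28.7% lower), so the lists as a whole lay near the background. Of 15 tested JAK-STAT genes 2 rose and 7 fell, with a median log2 fold change of -0.50 against 0.03 over all genes tested. The signal transducer Stat5b fell with -1.35 ± 0.17 (adjusted p = 7.78e-07), the STAT inhibitor Pias3 with -1.55 ± 0.19 (7.49e-07) and the phosphatase Ptpn6 with -1.04 ± 0.16 (1.93e-05), and Stat2 rose with 1.00 ± 0.18 (7.5e-05). Of 15 tested TNF receptor adaptor genes 3 rose and 3 fell, with a median of 0.00. Ripk3, a kinase of necroptosis, rose with 1.47 ± 0.25 (adjusted p = 4.14e-05) and the adaptor Traf1 with 3.20 ± 0.72 (0.000651), and Cflar, an inhibitor of caspase 8, fell with -0.97 ± 0.23 (0.00123). Of 9 adaptor genes of IL-1 and IL-18 receptors 2 rose and 5 fell, with Myd88 at -1.29 ± 0.18 (3.81e-06) and its inhibitor Irak3 at -2.40 ± 0.37 (9.69e-06). The 2 that rose were Irak1 (0.89 ± 0.20, 0.000725) and Irak2 (1.19 ± 0.27, 0.000809). Of 6 tested genes for shedding and processing of cytokines, the proteases Adam9 (2.76 ± 0.38, 2.57e-06) and Adam17 (0.88 ± 0.18, 0.000323) rose. Adam17 releases membrane-bound TNF. The inflammatory caspase Casp4 fell (-1.27 ± 0.34, 0.00316).

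In BMDM_T against BMDM_H 4 of the 45 tested genes were called, all higher in BMDM_T, beside 4.82% of all genes tested (2.82% higher). None of the 15 TNF receptor adaptor genes passed with edgeR, DESeq2 or limma-voom, and 2 had an unadjusted p under 0.05 with edgeR. Stat3, a signal transducer of the granulocyte CSF and interleukin 6 receptors, averaged 332 ± 53.9 CPM in BMDM_T and 204 ± 15.4 CPM in BMDM_H (SD; log2 fold change 0.71 ± 0.18, adjusted p = 0.0208). Jak3, the kinase bound to the common gamma chain, averaged 38.8 ± 6.04 CPM in BMDM_T and 20.1 ± 9.30 CPM in BMDM_H, a log2 fold change of 0.97 ± 0.28 (adjusted p = 0.0467). Myd88 averaged 384 ± 63.0 CPM in BMDM_T and 187 ± 36.6 CPM in BMDM_H, a log2 fold change of 1.03 ± 0.17 (adjusted p = 0.000785), and Casp4 rose with 1.32 ± 0.36 (adjusted p = 0.0379). DESeq2 also called 4 of the 45 genes, but limma-voom called 2. With limma-voom 1 JAK-STAT gene passed, and none passed in the shedding and processing list, which holds Casp4.

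Several members are neighbours in the genome (GENCODE vM21, GRCm38), and neighbours did not always move together. Csf2rb (chr15:78325752-78353847) and Csf2rb2 (chr15:78282507-78305721), 20030 bases apart, were both higher in BMDM_T than in BMDM_H. Tnfsf9 (chr17:57105325-57107757) rose and Tnfsf14 (chr17:57189492-57194177) fell in TAM relative to BMDM_T, although only Cd70 lies between them among protein-coding genes. On chromosome 16 Ifnar2, Il10rb, Ifnar1 and Ifngr2 follow each other within chr16:91372783-91565623, and of these only Ifnar1 passed between TAM and BMDM_T and only Il10rb between BMDM_T and BMDM_H. Il18r1 and Il18rap, 14507 bases apart on chromosome 1, were both at or near 0 in TAM, and Il4ra and Il21r, 23954 bases apart on chromosome 7, both had more counts in TAM than in marrow.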

How the data were processed

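RNA was measured with 3'-end libraries that carried molecular identifiers. The deposited values are raw counts per gene, made by the authors with bcl2fastq, STAR 2.4.2a and HTSeq on mm10, per the submitters' processing notes. The sources used here give neither the collapsing of identifiers nor the annotation or strand setting. Of 24421 rows 10207 have a symbol, and 17 of these symbols had been turned into dates. Counts of the 6 second-batch libraries do not follow the symbols (Spearman correlations with the first batch from -0.02 to 0 over 66 pairs, against 0.92 to 0.96 within first-batch BMDM_H), so they were not compared by gene. CPM refer to the genes in the table.

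The 11 libraries of the first batch were fitted together with edgeR 4.0.16 in R 4.3.3 (filterByExpr, TMM, glmQLFit, glmQLFTest). Each adjusted p is from this quasi-likelihood test with Benjamini-Hochberg adjustment over 7518 genes, called under 0.05. Errors of log2 fold changes are standard errors (SE), and errors of CPM are SD (n = 3 for TAM, 4 for each marrow group). Intervals are exact 95% intervals on pooled counts, and bounds use a floor of 3 counts over the group; both cover counting error only. Alternatives used DESeq2 1.42.0, limma 3.58.1 (voom), other scaling and filters, a replicate block and libraries left out. Every pair of replicates differed beyond sampling noise (chi-square per degree of freedom 2.67 to 14.6). Same-numbered BMDM_T and BMDM_H libraries deviated together (r = 0.22, 0.24, 0.13 and 0.13 across genes), above the limit of 0.1 taken for pairing. No label tells what a number stands for. TAM and BMDM_T libraries of the same number did not deviate together (0.02, -0.03 and 0.08). Differently numbered libraries were not compared, so these values cannot show that the numbers are paired. The procedure was tested on simulated counts with 100 genes changed 2-fold and 100 changed 4-fold in each comparison. Of the 2-fold changes it recovered 60 in TAM against BMDM_T, 50 in BMDM_T against BMDM_H and 56 in TAM against BMDM_H. Of the 4-fold changes it recovered 88, 92 and 93 in the same order, with 9, 10 and 7 false calls. A member that did not pass may thus still differ 2-fold. The simulation changed 200 of 7518 genes, whereas 58.9% of genes were called in TAM against BMDM_T and 56.3% in TAM against BMDM_H. Its recovery may therefore differ from that in the TAM comparisons.

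Members chosen by rule for description with values were those called in any comparison with at least 30 CPM in their highest group (up to 12 ligands and 20 receptors) and a fixed list of ligand and receptor partners. Il12a, Il12b, Il1f9, Il12rb1, Tnfrsf18 and Tnfrsf23 lay outside this rule and are described with values as well. The remaining members are given by counts or fold changes or named in passing. Members, lists and comparisons were chosen with earlier results of these data known. Promoters are from RefSeq (GRCm38.p6) and gene spans from GENCODE vM21.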

Additional observations from a re-analysis of the deposited data

Results flagged for a closer look

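In 65 groups of 4 libraries examined, 6 members had 1 library far from the other 3, and chance alone flags about 1 in 20 groups. Csf2rb was at 306 CPM in BMDM_T replicate 1, with the other BMDM_T libraries at 199.7 to 209 CPM. Il18rap was at 132 CPM in BMDM_T replicate 2, with the others at 65.8 to 71.6 CPM. Ifngr1 was at 120.0 CPM in BMDM_T replicate 4, with the others at 152 to 156 CPM. Csf3r was at 554 CPM in BMDM_H replicate 1, with the others at 260.2 to 306 CPM. Il15ra was at 9.30 CPM in BMDM_H replicate 3, which is 5 counts in a shallow library, with the others at 4.83 to 5.57 CPM. Tnfrsf12a was at 83.3 CPM in BMDM_H replicate 4, the shallowest library, with the others at 26.5 to 31.0 CPM.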

How the results depend on the processing

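Each comparison was recomputed under 20 alternatives, and no called member reversed direction in any of them. In TAM against BMDM_T 24 of 26 called members passed in every alternative that tested them, and in TAM against BMDM_H 23 of 26. In BMDM_T against BMDM_H it was 3 of 10 (Tnfsf13b, Tnfsf14 and Csf2rb2). Il1f9, counted among those that passed, was not tested with at least 10 CPM in 3 libraries or without BMDM_T replicate 1, 2 or 3. With no filter on low counts 11 ligands were called in TAM against BMDM_T and 11 in TAM against BMDM_H, against 7 in each with the filter. Leaving out 1 library gave 6 to 11 ligands in TAM against BMDM_H, the 11 without TAM replicate 3. In BMDM_T against BMDM_H it gave 238 to 409 genes called (362 with all libraries), the 238 without BMDM_H replicate 2, 2 to 4 ligands (4 with all) and 2 to 6 receptors (6 with all). Without the shallow BMDM_H replicates 3 and 4 together, 179 genes, 2 ligands and 1 receptor passed there. DESeq2 called 2 ligands and total-count scaling 3 receptors in that comparison. With the replicate numbers as a block, 468 genes passed in BMDM_T against BMDM_H. The block gave 4387 in TAM against BMDM_T (4426 without the block) and 4262 in TAM against BMDM_H (4230 without). Among members it changed the calls on Tnfrsf23, Ifngr2 and Tnfsf13b given above and no other. The cause of these shifts was not tested, and fits with libraries left out hold fewer samples. The tested set changed too. In TAM against BMDM_T it held 10 ligands in the main fit, 15 with no filter and 13 without TAM replicate 3. A floor of 3 counts is 0.397 CPM over TAM, 0.733 CPM over BMDM_T and 0.877 CPM over BMDM_H, so low members are resolved less well in marrow.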
